A study of Mus musculus with 5 samples.

Results

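The genes described here are the ligands and receptors of axon guidance in cells of the mouse lumbar dorsal root ganglion (DRG), the ganglion that holds the cell bodies of sensory neurons. They were chosen by symbol alone, as every row of the count matrix named as a numbered semaphorin, plexin, neuropilin, Eph receptor, ephrin, netrin, Unc5 receptor, Slit or Robo, or as Dcc. The rule reads no measured value, but these families were picked with earlier results of these data known. This gave 68 of 17271 rows, of which 35 encode ligands and 33 encode receptors. There were 20 semaphorins, 9 plexins, 2 neuropilins, 8 ephrins, 13 Eph receptors, 4 netrins, 5 netrin receptors (4 of the Unc5 family and Dcc), 3 Slits and 4 Robos.

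The cells came from 5 adult C57BL/6 mice, all untreated and wild type with no transgene or deletion named, and were captured with the Chromium 3′ kit, which tags every RNA molecule it catches with its own short code, the UMI. The authors sorted the 3352 deposited cells into 14 types, of which 12 are neurons, named for neurofilament (NF), non-peptidergic (NP) or peptidergic (PEP) classes or for tyrosine hydroxylase (Th), and the others are satellite glia and endothelial cells. The deposited name NF_Ca1b1 is written NF_Calb1 here. Because all mice form 1 group, the comparisons were between cell types, with the summed UMIs of each type in each of 5 libraries as replicates.

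Libraries 1 to 5 held 164, 539, 474, 805 and 1370 cells and 13050375, 42666954, 28667742, 51281229 and 88886919 UMIs. The median depth per cell ran from 16889 UMIs in endothelial cells and 17729 in satellite glia to 105150 in NP_Mrgprd neurons. The smallest groups were the 56 endothelial cells, with 3, 16, 16, 14 and 7 cells in libraries 1 to 5, and the 58 NF2_Ntrk2.Necab2 neurons, with 3, 6, 5, 17 and 27. Levels are given as CPM, the UMIs of a gene per 1000000 UMIs of a summed type in a library, as mean ± SD over the 5 libraries. Each level was compared across cell types for the same gene, and levels of different genes were not compared with each other.

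Marker genes bore out the main labels. The summed level of 6 neuronal markers was between 10268 and 13379 CPM in the neuron types and was 559 ± 224 in satellite glia and 618 ± 293 in endothelial cells. Satellite glia held 90727 ± 10413 CPM of 7 satellite glial markers, and endothelial cells held 7134 ± 1280.5 CPM of 6 endothelial markers, of which Cldn5, a tight junction gene, was the most abundant at 4315 CPM. The same endothelial list came to 26.2 ± 45.4 CPM in satellite glia and to at most 4.33 CPM in any neuron type. The glial mean rested on library 2, at 107 CPM, with the other libraries between 0.693 and 14.4 CPM. The endothelial sums also held 5571 ± 5719 CPM of the satellite glial list, with library 5 at 15254 CPM and the others between 1527 and 6156 CPM. On average most of it was Apoe at 3971 CPM, with Cdh19 at 0. Glul, also on this list, was higher in endothelial cells, at 1052 CPM, than in satellite glia, at 539 CPM. Markers of myelinating Schwann cells summed to 1524 ± 381 CPM in satellite glia, led by Mbp at 559 CPM. In Th neurons they summed to 1743 ± 250 CPM, of which Pmp22 gave 1531 CPM. Markers of fibroblasts and mural cells reached 234 CPM in satellite glia, 183 in Th neurons and 172 in endothelial cells, and macrophage markers stayed at or under 29.1 CPM. In Th neurons Rgs5 alone gave 178 CPM of the fibroblast and mural list. Rgs5 also gave 96.8 of 101 CPM in NP_Mrgpra3 and 82.5 of 85.5 CPM in NF2_Ntrk2.Necab2 neurons. The part of these transcripts in the levels below was not tested.

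Axon guidance cues are secreted or membrane-bound proteins that attract or repel the tip of a growing axon. Semaphorins are read by plexins, with neuropilins as partners for most secreted semaphorins, while ephrins bind Eph receptor tyrosine kinases on a neighbouring cell and can carry a signal into either cell. Netrins act through Dcc and Unc5 receptors and Slits through Robo receptors. In sensory ganglia these families are known for steering axons in the embryo, and neuropilins, plexin-D1, ephrin-B2 and Robo4 are also known from blood vessels.

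With a mean of 10 CPM as the level at which a gene was counted as present in a type, 45 of the 68 genes were present in at least 1 type and 38 in at least 1 neuron type. The share present in at least 1 type, 66.2%, was close to the 64.4% of all genes, but only 5.88% of the guidance genes, against 30.6% of all genes, were present in every neuron type. The other 23 genes reached 10 CPM nowhere. Only 4 genes were present in all 12 neuron types, namely Robo2, Efna5, Plxna2 and Sema4f. Ligands and receptors split in a like way, since 13 of 35 ligands and 10 of 33 receptors were present in no type. At the other end, 5 ligands (Sema4d, Sema4f, Sema6d, Efna1, Efna5) and 7 receptors (Nrp1, Nrp2, Plxna2, Plxna4, Plxnc1, Plxnd1, Robo2) were present in 8 types or more. Ranked by the level in its leading type, the gene just under the threshold was Dcc at 9.47 CPM and the gene just over it was Ephb1 at 10.2 CPM, both in NF_Pvalb neurons.

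The number of guidance genes at 10 CPM or more differed between types. NF_Calb1 neurons held 25 of them, 13 ligands and 12 receptors, and NF_Pvalb neurons, Th neurons and endothelial cells held 20 each. Of all genes, 43.7% were present in NF_Pvalb neurons, 43.5% in Th neurons and 37.7% in endothelial cells. NP_Mrgprd neurons held 9, the lowest count, where 40.0% of all genes were present against 45.3% in NF_Calb1, although their summed depth of 92245664 UMIs was the largest of all types. Endothelial cells were the type of highest level for 17 genes, NF_Pvalb neurons for 11 and satellite glia for 10, while NP_Nts neurons led for 0 genes. Over all genes, endothelial cells led for 16.3%, satellite glia for 13.1%, NF_Pvalb for 10.4% and NP_Nts for 7.06%, and the guidance genes led there in 25%, 14.7%, 16.2% and 0%.

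**Figure D1:**
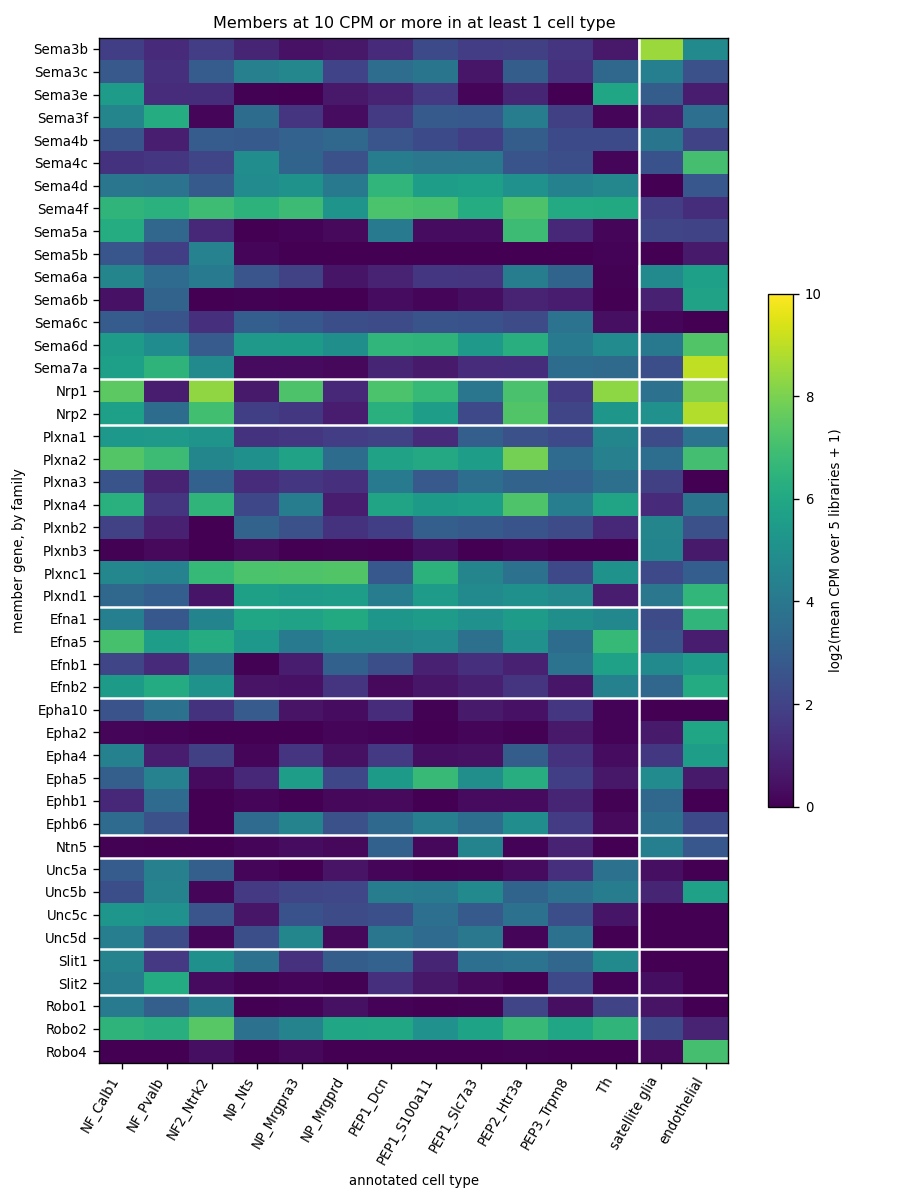
Mean level of the 45 guidance genes that reached 10 CPM in at least 1 type, as log2(mean CPM over 5 libraries + 1) by colour, with genes by family in rows and the 14 annotated cell types in columns. Sema3b stands out in satellite glia, Sema7a, Nrp2 and Robo4 in endothelial cells, and the rows of Nrp1, Plxna4 and Plxnc1 change sharply among the neuron types.

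The neuropilins, co-receptors for secreted semaphorins and for vascular endothelial growth factor, differed widely between neuron types, and Nrp1 had the widest range of all guidance genes tested. The Nrp1 level in libraries 1 to 5 was 197, 355, 369, 376 and 326 CPM in NF2_Ntrk2.Necab2 neurons and 255, 309, 269, 375 and 346 CPM in Th neurons. Endothelial cells had 264 ± 78.3 CPM, and NF_Calb1, NP_Mrgpra3, PEP1_Dcn, PEP2_Htr3a.Sema5a and PEP1_S100a11.Tagln2 neurons had means from 102 to 175 CPM. NF_Pvalb, NP_Nts, NP_Mrgprd and PEP3_Trpm8 neurons were at 0.689, 0.654, 1.25 and 2.29 CPM. The 3 types with the highest means overlapped in their library values, and all of them lay far above the last 4. Within the NP class alone, Nrp1 was therefore present in NP_Mrgpra3 and near 0 in the others, and 98.1% of NP_Mrgpra3 cells had an Nrp1 UMI against 3.75% of NP_Nts and 4.56% of NP_Mrgprd cells. With each cell thinned to 10000 UMIs these shares were 69.2%, 0.75% and 1.56%, so they kept their order at equal depth.

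Nrp2 was highest in endothelial cells, at 601, 506, 502, 273 and 407 CPM in libraries 1 to 5. PEP2_Htr3a.Sema5a neurons followed at 155 ± 19.1 CPM and NF2_Ntrk2.Necab2 neurons at 126 ± 26.3 CPM. All 5 endothelial values lay above every neuronal value. PEP1_Dcn neurons had 80.3 ± 33.5 CPM, with library 1 at 20.5 CPM and the other libraries between 93.2 and 99.8 CPM. Satellite glia held 32.6 ± 11.2 CPM, and NP_Mrgprd neurons were the lowest at 0.731 CPM.

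Plexins, the signalling receptors for semaphorins, divided among types. Plxna2 was highest in PEP2_Htr3a.Sema5a neurons, at 243, 175, 287, 206 and 276 CPM, and next in NF_Calb1 neurons at 158 ± 57.8 CPM, and these library values overlapped. Plxna4 in the PEP2 neurons was 172, 149, 151, 122 and 163 CPM, above every library of the second type, NF2_Ntrk2.Necab2, at 91.4 ± 18.2 CPM. NF_Pvalb neurons had little Plxna4, at 1.9 CPM, although their Plxna2 was 115 ± 20.6 CPM. Both genes encode A-type plexins that pair with neuropilins.

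Plxnc1, the receptor for Sema7a, showed another order. It was 127, 168, 179, 138 and 158 CPM in NP_Mrgprd neurons, 258, 126, 113, 120 and 142 CPM in NP_Mrgpra3 neurons and 156, 151, 131, 134 and 139 CPM in NP_Nts neurons. The 3 NP types did not differ beyond their spread, and the highest value, 258 CPM, came from the 4 cells of NP_Mrgpra3 in library 1. NF2_Ntrk2.Necab2 neurons held 102 ± 14.3 CPM and PEP1_S100a11.Tagln2 neurons 86 ± 5.77 CPM, and PEP1_Dcn and PEP3_Trpm8 neurons were at 5.69 and 3.59 CPM. Plxnd1, the receptor for Sema3e, was highest in endothelial cells at 97.7 ± 17.5 CPM, above every library of NP_Nts neurons at 50.4 ± 8.3 CPM. Th neurons, at 0.728 CPM, and NF2_Ntrk2.Necab2 neurons, at 0.479 CPM, had almost none.

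**Figure D2:**
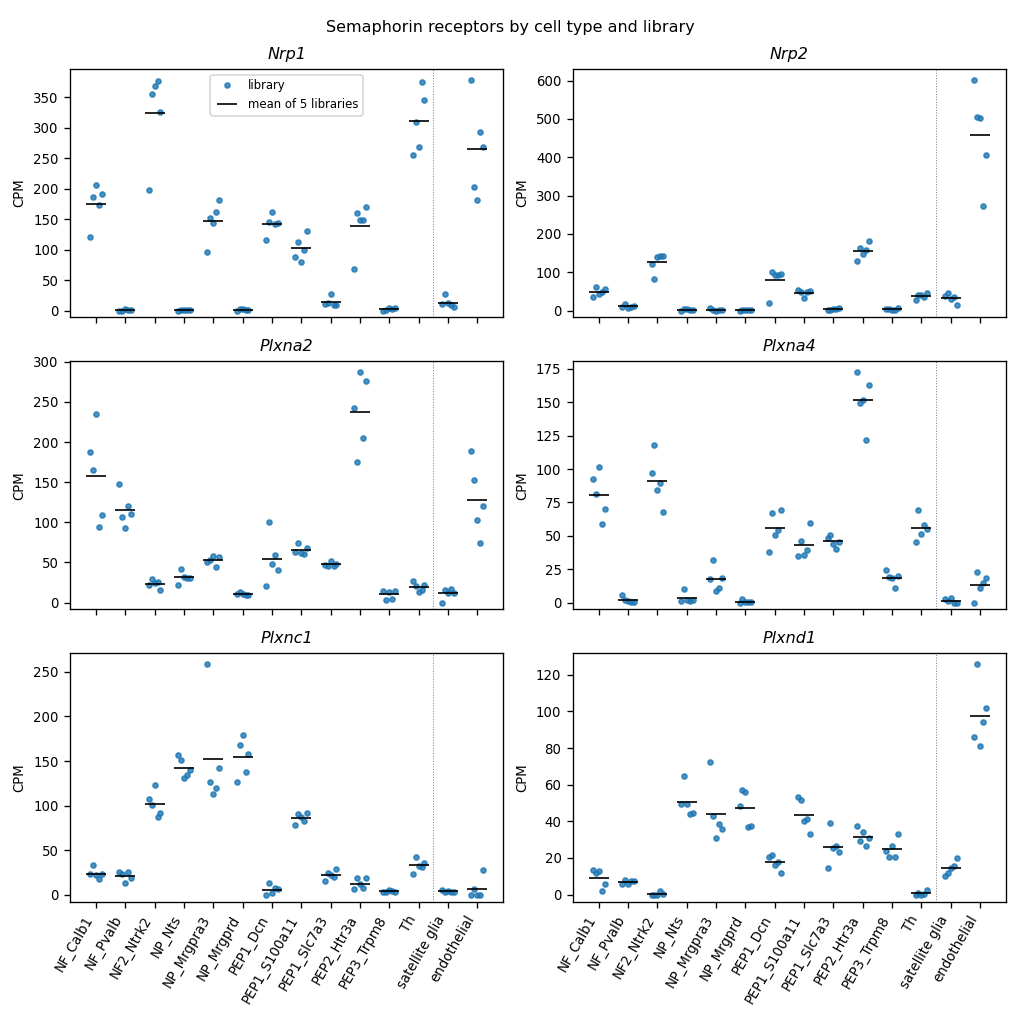
CPM of 6 semaphorin receptors (y axes, linear) in each of the 14 cell types (x axis), with a point for each of the 5 libraries and a bar at their mean. Nrp1 is near 0 in NF_Pvalb, NP_Nts, NP_Mrgprd and PEP3_Trpm8 neurons, and Plxnc1 is high in all 3 NP types.

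Among the semaphorins, Sema3b, a secreted ligand, was carried by satellite glia. Its level there was 381, 364, 344, 374 and 326 CPM in libraries 1 to 5. Endothelial cells had 0, 69.5, 14.8, 0 and 46.2 CPM, and no neuron type exceeded 3.74 CPM. The glial values lay above all others. A Sema3b UMI was found in 98.8% of satellite glia, at a median depth of 17729 UMIs, and in 4.11% of NP_Mrgprd neurons, at 105150 UMIs, and these shares were 94.8% and 0.556% after thinning. The 14.3% of endothelial cells with a Sema3b UMI, or 10.7% after thinning, stood beside the satellite glial transcripts named above, whose part was not tested.

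Sema7a, a membrane-anchored semaphorin, was highest in endothelial cells at 583, 559, 572, 467 and 416 CPM. NF_Pvalb neurons were next, at 121, 93.9, 102, 59.8 and 74.3 CPM, followed by NF_Calb1 at 49.5 CPM and NF2_Ntrk2.Necab2 at 25.5 CPM. Its level was at most 0.218 CPM in each NP type, the neurons in which its receptor Plxnc1 was highest. Sema3e, the secreted ligand of plexin-D1, was 59.7, 60.4, 50, 64.9 and 56.9 CPM in Th neurons and 32.2, 50.5, 62.1, 37 and 41.5 CPM in NF_Calb1 neurons. These 2 types overlapped, and the next, satellite glia, had 6.73 CPM.

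Sema3f, a secreted ligand read through neuropilin-2, was 92, 69.2, 59.6, 70.4 and 68.8 CPM in NF_Pvalb neurons. Every one of these values lay above those of NF_Calb1 neurons, which had a mean of 22.4 CPM. Sema5a, which gives a PEP2 type its name, was 108, 106, 138, 81.3 and 136 CPM in that type. NF_Calb1 neurons had 107, 94.8, 54.2, 33.5 and 71.4 CPM, which overlapped with PEP2. Only PEP1_Dcn neurons, at 15.9 CPM, also passed 10 CPM. A Sema5a UMI was found in 82.5% of PEP2_Htr3a.Sema5a cells and 51.1% of NF_Calb1 cells, or in 56.3% and 28.9% after thinning.

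The remaining semaphorins ranged from widely present to present in a single type. Sema4f, a transmembrane semaphorin, ran from 149 ± 11.9 CPM in PEP2_Htr3a.Sema5a to 34.8 ± 4.77 CPM in NP_Mrgprd neurons and was at 2.5 CPM in satellite glia and 1.48 CPM in endothelial cells. Sema6d was 154 ± 33.9 CPM in endothelial cells and 94.5 ± 11.4 CPM in PEP1_Dcn neurons. Sema4d, the plexin-B1 ligand, was 103, 91.6, 93.8, 107 and 81.5 CPM in PEP1_Dcn neurons, above every library of every other type, and satellite glia had 0 UMIs of it. Sema5b passed 10 CPM only in NF2_Ntrk2.Necab2 neurons, at 10.8, 9.74, 40.6, 23.7 and 19.2 CPM, and Sema6c only in PEP3_Trpm8 neurons, at 12, 14.7, 11.2, 11.6 and 14.8 CPM.

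**Figure D3:**
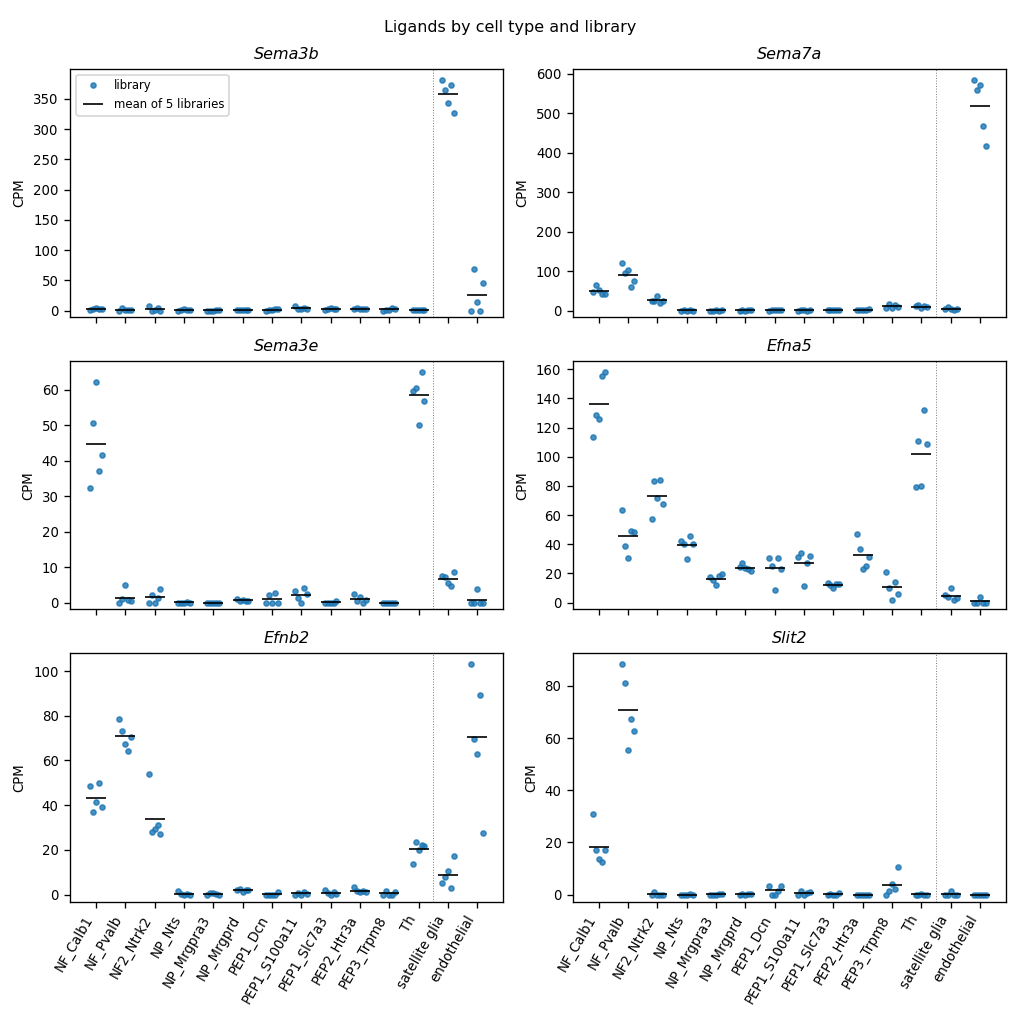
CPM of 6 guidance ligands (y axes, linear) in each of the 14 cell types (x axis), with a point for each of the 5 libraries and a bar at their mean. Sema3b is highest in satellite glia, with endothelial values from 0 to 69.5 CPM, Sema7a is highest in endothelial cells, and Efnb2 and Slit2 are highest among neurons in NF_Pvalb.

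Of the 8 ephrins, 4 reached 10 CPM in some type. Efna5, a membrane-anchored A-type ephrin, was 113, 129, 126, 156 and 158 CPM in NF_Calb1 neurons and 79, 111, 79.8, 132 and 109 CPM in Th neurons, with overlap, and 72.7 CPM in NF2_Ntrk2.Necab2. Efna1 was 96 ± 26.1 CPM in endothelial cells and 66.7 ± 6.62 CPM in NP_Mrgprd neurons, which overlapped. Efnb2, a transmembrane ephrin known from arteries, was 78.6, 73.1, 67.2, 64.2 and 70.7 CPM in NF_Pvalb neurons and 103, 69.5, 62.8, 89.4 and 27.7 CPM in endothelial cells. Efnb2 was at most 1.89 CPM in the NP and PEP types. Efnb1 was 58.8, 54.8, 47.1, 50.5 and 49.6 CPM in Th neurons, 45.7 ± 16.5 CPM in endothelial cells and 26.1 CPM in satellite glia, with overlap between the first 2.

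Of the 13 Eph receptors, 6 reached 10 CPM in some type. Epha5 was 133, 80.7, 108, 103 and 104 CPM in PEP1_S100a11.Tagln2 neurons and 73.8 ± 5.42 CPM in PEP2_Htr3a.Sema5a neurons, which overlapped in library 2 of the first. In PEP1_Dcn neurons Epha5 was 6.85 CPM in library 1 and between 38.4 and 64.5 CPM in the others. Epha2 was present in endothelial cells alone, at 68.6, 82.7, 44.3, 59.6 and 37 CPM, and was at most 0.653 CPM elsewhere. Epha4 was 17.2, 59.5, 59.1, 54.6 and 46.2 CPM in endothelial cells and 14.3, 27.6, 22.1, 20 and 16.4 CPM in NF_Calb1 neurons. Ephb6, whose kinase is inactive, was highest in PEP2_Htr3a.Sema5a neurons at 29.3 ± 5.48 CPM, and Epha10 was highest in NF_Pvalb neurons at 12.4 ± 2.74 CPM.

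Netrins, secreted cues that attract or repel by receptor, were low in all types. Ntn1 and Ntn4 stayed at or under 0.738 CPM in each type, and Ntn3 reached 5.38 CPM in PEP1_Dcn neurons. Ntn5 was the exception, at 12.4, 15.6, 37.3, 24.1 and 18.2 CPM in PEP1_Slc7a3.Sstr2 neurons and 10.1, 33.8, 13.9, 19 and 17.3 CPM in satellite glia, which overlapped.

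Of the 5 netrin receptors, 4 reached 10 CPM in a neuron type, and Dcc did not. Unc5c was 37.1 ± 8.11 CPM in NF_Calb1 and 32.2 ± 8.57 CPM in NF_Pvalb neurons. Unc5a was highest in NF_Pvalb neurons at 19.3 ± 5.54 CPM and Unc5b in endothelial cells at 51.5 ± 27.9 CPM. Unc5d was 9.79, 33.2, 20.9, 27.5 and 24.9 CPM in NP_Mrgpra3 neurons. Its mean in NF_Calb1 neurons was 18.4 ± 11.8 CPM, but only 11.1% of those cells had an Unc5d UMI, against 69.2% of NP_Mrgpra3 cells. Dcc was found in NF_Pvalb neurons, at 7.67, 9.88, 7.56, 14.3 and 7.92 CPM, and did not pass 0.97 CPM in any other type.

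Of the Slits, secreted repellents, and their Robo receptors, Slit1, Slit2, Robo1 and Robo2 were each highest in an NF type. Slit2 was 88.2, 81, 55.4, 67.3 and 62.7 CPM in NF_Pvalb neurons, above all 5 libraries of NF_Calb1 at 18.1 ± 7.39 CPM. Slit1 was 31.2 ± 6.95 CPM in NF2_Ntrk2.Necab2, 25.6 CPM in Th and 21 CPM in NF_Calb1 neurons, and satellite glia and endothelial cells had 0 UMIs of it. Slit3 stayed at or under 1.4 CPM. Robo2 was 147, 160, 198, 169 and 165 CPM in NF2_Ntrk2.Necab2 neurons, above every library of PEP2_Htr3a.Sema5a at 107 ± 20.3 CPM, and NP_Nts had 12.2 CPM. Robo1 had 18.4 CPM in NF2_Ntrk2.Necab2 and 16 CPM in NF_Calb1 neurons, and Robo3 stayed at or under 0.578 CPM.

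Robo4, the endothelial member of its family, had 103, 189, 122, 124 and 120 CPM in endothelial cells and at most 0.325 CPM in every other type. A Robo4 UMI was found in 87.5% of endothelial cells, at a median depth of 16889 UMIs, and in 0.402% of satellite glia, at 17729 UMIs, and after thinning in 73.2% and 0.402%.

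Each type was next compared with all other cells of the same library, to ask which guidance genes mark it. The UMIs of the other cells were added up, so types with more UMIs weighed more among them. NP_Mrgprd neurons held 92245664 of all 224553219 UMIs. The part of this weighting in the shares below was not tested. A marker had an adjusted p under 0.01 (edgeR quasi-likelihood test, Benjamini-Hochberg over all genes), was at least 2-fold higher and had a UMI in at least 25% of the cells of the type. The authors defined the types from these same counts, so the test says how far a type differs and is not independent evidence of the type. NF_Calb1 had the most, with 20 of 46 genes tested, where 13.4% of all genes were markers. NF_Pvalb had 16 of 48 (12.4% of all genes), NF2_Ntrk2.Necab2 12 of 44 (7.71%), and endothelial cells 16 of 43 (14.8%).

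Among the remaining neurons, PEP2_Htr3a.Sema5a had 11 markers of 43 tested (7.64% of all genes), Th 11 of 43 (5.93%), PEP1_Dcn 10 of 44 (5.48%) and PEP1_S100a11.Tagln2 8 of 43 (3.28%). NP_Mrgpra3 had 6 of 42 (2.95%), PEP1_Slc7a3.Sstr2 5 of 43 (4.98%), NP_Nts 4 of 44 (4.88%) and NP_Mrgprd 4 of 53 (4.72%). Satellite glia had 5 of 47 (14.8%) and PEP3_Trpm8 had 1 of 44 (5.32%), the types in which the share of guidance genes lay under that of all genes.

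The same comparison also gave the guidance genes that were at least 2-fold lower in a type than in the other cells. NP_Mrgprd neurons had 39 of 53 (21.7% of all genes), NP_Nts 22 of 44 (18.5%) and NP_Mrgpra3 16 of 42 (11.6%). NF_Calb1 had 10 of 46 (15.8%), NF_Pvalb 17 of 48 (17.5%), NF2_Ntrk2.Necab2 16 of 44 (13.5%) and Th 18 of 43 (13.9%). Of the PEP types, PEP1_Dcn had 11 of 44 (8.28%), PEP1_S100a11.Tagln2 13 of 43 (8.36%), PEP1_Slc7a3.Sstr2 17 of 43 (12.1%), PEP2_Htr3a.Sema5a 12 of 43 (10.6%) and PEP3_Trpm8 14 of 44 (11.1%). Satellite glia had 21 of 47 (32.5%). Endothelial cells, with 9 of 43 (34.2%), were the type in which the share of lower guidance genes lay under that of all genes.

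The leading marker of each type, taken as the largest fold change, named a different gene in each. In NF neurons these were Epha4 for NF_Calb1 (log2 fold change 3.72 ± 0.24 SE, adjusted p = 7.78e-09), Dcc for NF_Pvalb (5.90 ± 0.35, adjusted p = 2.28e-09) and Sema5b for NF2_Ntrk2.Necab2 (5.45 ± 0.47, adjusted p = 1.42e-07). In NP neurons they were Epha10 for NP_Nts (2.45 ± 0.25), Unc5d for NP_Mrgpra3 (2.71 ± 0.27) and Plxnc1 for NP_Mrgprd (1.80 ± 0.14). Epha10, with a UMI in 25.3% of NP_Nts cells and 6.75% after thinning, stood at the edge of the definition. A leading marker was not always particular to its type. Epha10 was at 6.32 CPM in NP_Nts neurons, under the 10 CPM counted as present. It was higher in NF_Pvalb neurons, at 12.4 CPM, and was a marker there too. Plxnc1 was at 154 CPM in NP_Mrgprd and 152 CPM in NP_Mrgpra3 neurons.

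The leading markers of the PEP types were Sema4d for PEP1_Dcn (2.08 ± 0.12), Epha5 for PEP1_S100a11.Tagln2 (2.76 ± 0.16), Ntn5 for PEP1_Slc7a3.Sstr2 (4.48 ± 0.38), Sema5a for PEP2_Htr3a.Sema5a (3.85 ± 0.35) and Sema6c for PEP3_Trpm8 (1.64 ± 0.19). Th neurons were led by Sema3e (3.67 ± 0.34), satellite glia by Plxnb3 (8.63 ± 0.52) and endothelial cells by Robo4 (12.06 ± 0.38).

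**Figure D4:**
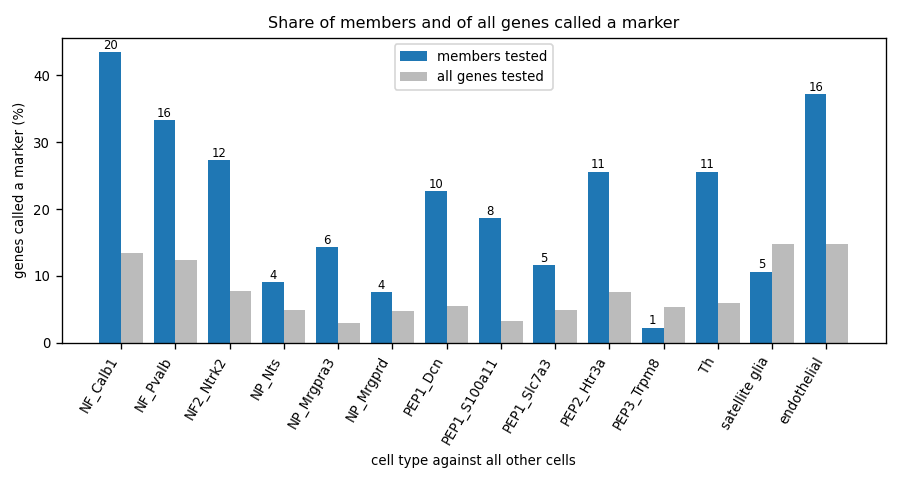
Share of the tested guidance genes (blue, with their number above the bar) and of all tested genes (grey) that were markers of a type, in percent from 0, for each of the 14 types against all other cells of the same library. The blue bar is the higher one in 12 types and the lower one in PEP3_Trpm8 and satellite glia. The UMIs of the other cells were added up, so NP_Mrgprd neurons, with the most UMIs, weighed most in the comparisons of the other types.

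The guidance genes were then compared between satellite glia and neurons. The contrast set the glia against the mean log level of the 12 neuron types, and a gene was called at an adjusted p under 0.01 and at least 2-fold in edgeR's quasi-likelihood test over all type sums. Of 52 genes tested, 21 were higher in glia and 12 lower, against 50.7% of all genes called in either direction, 25.8% higher and 24.9% lower. The median log2 fold change was 0.38 over the guidance genes and -0.11 over all genes. Sema3b was at 358 CPM in glia and 1.77 CPM in neurons (log2 fold change 8.19 ± 0.14 SE, adjusted p = 5.77e-58). Plxnb3, a B-type plexin, was at 22.1 and 0.0745 CPM (8.49 ± 0.34, adjusted p = 4.71e-27). The lower genes included widely expressed neuronal ones, with Sema4f at 2.5 against 96.9 CPM (-4.90 ± 0.26) and Robo2 at 3.47 against 70 CPM (-3.98 ± 0.28). Sema4d and Slit1, of which glia had no UMIs, were also called lower.

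A mean of log levels weighs a neuron type with almost none of a gene as much as one rich in it, and for some genes this turned the sign. Of the 21 genes higher in glia, 16 also had the higher mean CPM, and the others were Sema5a, Nrp2, Sema3e, Epha5 and Efnb2. When all neurons of a library were summed instead, 13 genes were higher in glia and 21 lower of 47 tested, against 54.2% of all genes called, 21.6% higher and 32.6% lower. This way of summing was chosen after the data were seen. The 12 genes higher by both measures were Sema3b, Sema3c, Sema4a, Sema4b, Sema6a, Plxnb2, Plxnb3, Efnb1, Epha7, Ephb1, Ephb3 and Ntn5, and Sema5a was called in opposite directions. Of the 12, Ephb3 was missing from the calls by type means without library 2 or 5 or without cells over 10% mitochondrial UMIs. In each of these settings it also dropped out of the F test across neuron types given below. The calls do not tell a gene no longer tested from one with a smaller difference, so no conclusion is drawn from the loss. All 12 genes lower by type means were also lower by summed neurons, and among them Sema3f lost its call by type means without library 1, 3 or 4.

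Endothelial cells were compared with neurons in the same way. Against the mean of neuron types, 19 of 52 guidance genes were higher and 6 lower, where 50.3% of all genes were called, 21.4% higher and 28.9% lower. The median log2 fold change was 0.78 over the guidance genes and -0.60 over all genes. By summed neurons, 14 of the 19 were also called higher and all 6 were also called lower. In all, that measure called 14 higher and 13 lower of 42 tested, with 58.7% of all genes called, 14.9% higher and 43.9% lower. The 14 higher by both measures were Robo4, Epha2, Epha4, Sema4c, Sema6a, Sema6b, Sema6d, Sema7a, Nrp1, Nrp2, Plxnd1, Efnb1, Efnb2 and Unc5b. Each of them was also a marker of endothelial cells against all other cells. Those other cells were neurons and satellite glia, and the glia held 4571598 of all 224553219 UMIs. The marker comparison therefore nearly repeats the one with summed neurons and is not separate evidence.

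Robo4 was at 132 CPM in endothelial cells and 0.0466 CPM in neurons (log2 fold change 11.20 ± 0.31 SE, adjusted p = 1.58e-31). Epha2 was at 58.4 and 0.102 CPM (9.23 ± 0.40, adjusted p = 3.50e-29) and Sema7a at 519 and 15.9 CPM (7.56 ± 0.17, adjusted p = 5.77e-51). Nrp2 was at 458 and 43.1 CPM (5.02 ± 0.17), Plxnd1 at 97.7 and 25.2 CPM (2.93 ± 0.26) and Nrp1 at 264 and 113 CPM (3.26 ± 0.22). With summed neurons these last 3 values were 3.53, 1.24 and 1.33, so all 3 were smaller when neurons were summed. The genes that were lower by both measures were Plxnc1, Sema4d, Robo2, Efna5, Slit1 and Sema4f, of which Slit1 lost its call without library 2, 3, 4 or 5, with sums of at least 10 cells or without cells over 10% mitochondrial UMIs.

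Promoter sequences are shown for 3 of these endothelial genes, Robo4 and Epha2 because neither passed 0.653 CPM in any other type and Efnb1 because it was also called in satellite glia. They are RefSeq sequences of build GRCm38.p6, the build that UCSC names mm10, on the plus strand, from 250 bases before the start site up to the earliest annotated start of the gene. Capitals mark a match to AGGAAG, the core of many ETS factor sites, searched on both strands.
Robo4, chr9:37401722-37401896: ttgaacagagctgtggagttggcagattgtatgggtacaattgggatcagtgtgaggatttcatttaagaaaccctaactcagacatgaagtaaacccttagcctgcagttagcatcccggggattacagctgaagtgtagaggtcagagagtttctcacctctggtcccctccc
Epha2, chr4:141300971-141301220: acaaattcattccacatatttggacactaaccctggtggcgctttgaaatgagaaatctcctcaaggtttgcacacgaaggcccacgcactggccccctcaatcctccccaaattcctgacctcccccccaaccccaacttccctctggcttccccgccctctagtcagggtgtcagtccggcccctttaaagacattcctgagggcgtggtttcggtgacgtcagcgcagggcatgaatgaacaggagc
Efnb1, chrX:99135811-99136060: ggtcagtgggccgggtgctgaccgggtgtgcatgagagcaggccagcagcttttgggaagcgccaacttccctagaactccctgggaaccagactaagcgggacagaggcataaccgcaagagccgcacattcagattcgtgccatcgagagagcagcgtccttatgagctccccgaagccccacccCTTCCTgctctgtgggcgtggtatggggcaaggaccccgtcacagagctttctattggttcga

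In the stretches printed, Efnb1 had 1 match, with its first base 63 bases before the start site, and Robo4 and Epha2 had none, although the 75 bases of the Robo4 window that are not printed held 1. Over whole windows of 250 bases, 4 of the 15 endothelial guidance markers with a promoter in the table held AGGAAG on either strand, or 26.7%, against 29.2% of all 27025 promoters and 19 of 58 guidance genes. ACAAAG, the core of many SOX factor sites, was in 0 of the same 15 windows, in 6 of 58 guidance genes and in 16.5% of all promoters. Of the satellite glial guidance markers, 3 had a promoter in the table, of which 2 held AGGAAG and 1 held ACAAAG. These are matches of letters in these windows and not sites.

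**Figure D5:**
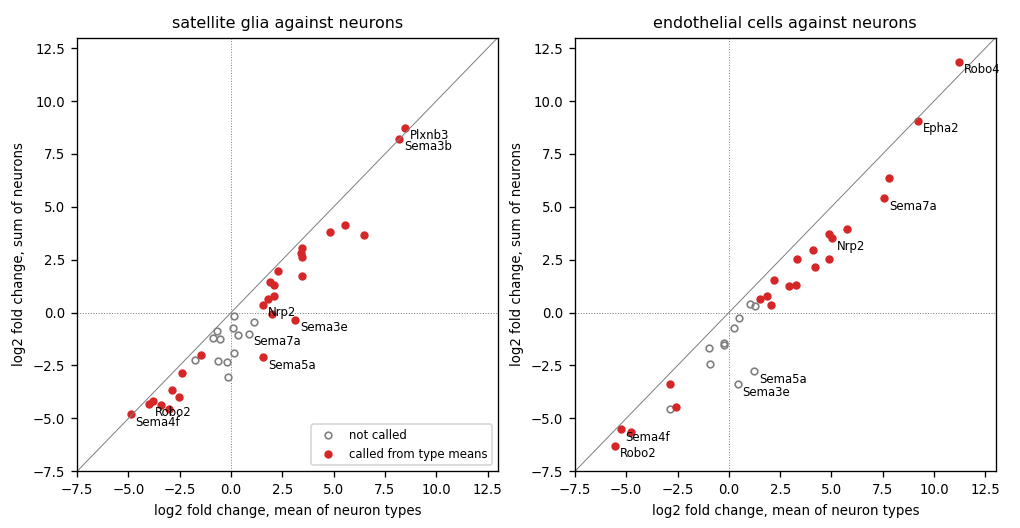
Log2 fold change of each guidance gene in satellite glia (left) and endothelial cells (right) against neurons, with the mean of the 12 neuron types on the x axis and the sum of all neurons on the y axis. Red points were called by type means, grey rings were not, and genes with 0 UMIs in either group are not drawn. Most points lie under the diagonal, Robo4, Epha2, Sema3b and Plxnb3 lie close to it, and Sema5a in glia is positive on x and negative on y.

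Neuron classes were compared next, first NF with NP neurons. In the contrast of the mean of 3 NF types with the mean of 3 NP types, 24 of 52 genes were higher in NF and 11 lower, against 32.6% of all genes called, 18.1% higher and 14.5% lower. The median log2 fold change was 1.42 over the guidance genes and -0.02 over all genes. With the cells of each class summed, 31 were higher and 6 lower of 48 tested, among them 21 of the 24 and 6 of the 11, where 38.0% of all genes were called, 22.1% higher and 15.9% lower. Sema7a was at 55.1 CPM in NF and 0.196 CPM in NP neurons (log2 fold change 7.59 ± 0.23 SE, adjusted p = 1.15e-41). Efnb2 was at 49.3 and 0.909 CPM (6.24 ± 0.20, adjusted p = 7.56e-41), and Robo1 at 13.8 and 0.155 CPM (5.99 ± 0.29). Slit2, at 29.8 and 0.0702 CPM (5.45 ± 1.34), lost its call when library 2 was left out or with sums of at least 10 cells, and Nrp1, at 167 and 49.5 CPM (2.57 ± 0.55), lost it without library 3.

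The genes higher in NP neurons were fewer. Plxnc1 was at 149 CPM in NP and 48.8 CPM in NF neurons (log2 fold change of NF against NP -2.13 ± 0.12, adjusted p = 2.89e-27). Plxnd1 was at 47.2 and 5.49 CPM (-3.77 ± 0.19, adjusted p = 3.59e-29) and Efna1 at 59.2 and 15.5 CPM (-2.30 ± 0.12, adjusted p = 1.99e-27). These 3 genes were also lower in NF neurons with the cells of each class summed.

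Against the 5 PEP types, 18 of 52 guidance genes were higher in NF neurons and 13 lower, where 24.2% of all genes were called, 11.3% higher and 12.9% lower. Efnb2, at 49.3 against 0.787 CPM (5.99 ± 0.18, adjusted p = 9.90e-42), and Sema7a, at 55.1 against 3.06 CPM (4.59 ± 0.17), were again higher in NF. Epha5 was lower, at 9.26 against 51 CPM (-3.07 ± 0.27, adjusted p = 2.55e-16), as were Sema4d at 11.1 against 49.1 CPM (-1.94 ± 0.12) and Plxnd1 at 5.49 against 28.8 CPM (-2.92 ± 0.20). Dcc, at 3.34 against 0.0651 CPM (3.30 ± 0.89), lost its call without library 4. Without cells over 10% mitochondrial UMIs it was missing both from these calls and from the F test across neuron types given below. The calls do not tell whether Dcc was still tested there, so no conclusion is drawn from that absence. By class sums, 20 were higher and 13 lower of 50 tested, among them 16 of the 18 and 12 of the 13, with 23.2% of all genes called, 10.6% higher and 12.6% lower.

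NP and PEP neurons differed in fewer genes, 3 higher and 15 lower in NP of 52, against 19.2% of all genes, 5.57% higher and 13.6% lower. Plxnc1 was at 149 CPM in NP and 26 CPM in PEP neurons (log2 fold change 3.42 ± 0.11 SE, adjusted p = 1.25e-39). Nrp2, at 1.81 against 57.8 CPM (-3.90 ± 0.27, adjusted p = 1.51e-21), and Plxna4, at 7.17 against 62.9 CPM (-3.77 ± 0.18, adjusted p = 2.75e-29), were lower in NP. Sema5a, at 0.0868 against 26.3 CPM (-5.09 ± 0.68), lost its call without library 5. By class sums, 3 were higher and 22 lower of 40 tested, among them 2 of the 3 and 12 of the 15, with 23.6% of all genes called, 7.78% higher and 15.9% lower, and Efnb1 was called in the opposite direction.

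Across the 12 neuron types at once, an F test called 49 of the 52 guidance genes tested, but 92.4% of all genes were called as well, so the count says little of these families. The 3 genes not called were Epha2, Robo4 and Plxnb3, each at most 0.587 CPM in any neuron type. The widest ranges of mean log2(CPM + 1) between neuron types were 7.73 for Nrp1, 6.82 for Sema5a, 6.62 for Plxna4, 6.54 for Nrp2 and 6.47 for Epha5. Next came Sema7a at 6.27, Slit2 at 6.15, Sema3f at 6.03, Efnb2 at 5.97 and Sema3e at 5.89.

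Other genes of the pathway, 61 co-receptors, signal carriers and cytoskeletal regulators of which 56 were tested, were counted in the same fits. In glia against neurons 25 were higher and 20 lower, where 25.8% and 24.9% of all genes were, and with summed neurons 17 were higher and 22 lower of 53 tested, where 21.6% and 32.6% of all genes were. In endothelial cells 16 were higher and 17 lower (21.4% and 28.9% of all genes), and with summed neurons 11 and 23 of 54 (14.9% and 43.9%). In NF against NP neurons 21 were higher and 6 lower (18.1% and 14.5% of all genes). Ntng1, a netrin-G that sits in the membrane, was at 103 CPM in NF and 0.0532 CPM in NP neurons (log2 fold change 9.29 ± 0.28 SE, adjusted p = 2.33e-40), and Nrcam, an adhesion molecule that binds neuropilins, at 64.8 and 0.875 CPM (6.11 ± 0.21). Mical1, an oxidase that acts behind plexins on actin, was higher in NP neurons, at 176 against 7.22 CPM (-4.54 ± 0.16, adjusted p = 7.09e-38).

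Among the collapsin response mediators, which carry semaphorin signals to the cytoskeleton, Crmp1 was at 93.2 CPM in neurons, 1.70 in satellite glia and 3.32 in endothelial cells. Dpysl2 of the same family was at 354 CPM in neurons, 61.7 in glia and 20 in endothelial cells, and both were called lower in glia and in endothelial cells. Dpysl4 went the other way in glia, at 20.4 CPM against 2.84 CPM in neurons (4.03 ± 0.27, adjusted p = 1.09e-21). Kdr, the main receptor for vascular endothelial growth factor and a partner of neuropilins, was at 261 CPM in endothelial cells and 0.141 CPM in neurons (11.33 ± 0.30, adjusted p = 2.24e-36). In NF against PEP neurons 15 pathway genes were higher and 8 lower (11.3% and 12.9% of all genes), and in NP against PEP neurons 3 and 12 (5.57% and 13.6%). In the F test over neuron types 53 of 56 were called, where 92.4% of all genes were. The pathway genes named here were chosen after their values were seen.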

How the data were processed

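The authors deposited 1 matrix of raw UMI counts per gene and cell, made with Cell Ranger and Seurat on mm10, and a cell type for each cell. No other count table was used. Rows that name no mouse gene, LacZ among them (4 rows, 143 UMIs), were left out. Library identifiers in the cell names gave 5 libraries, taken as 1 mouse each, and 7 barcodes were shared between libraries among 3345 distinct ones. No doublet caller was run, and 188 cells had over 10% mitochondrial UMIs.

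UMIs were summed per type and library. The test was that of edgeR 4.0.16 (R 4.3.3, TMM, quasi-likelihood, Benjamini-Hochberg over all genes), with DESeq2 1.42.0 as an alternative. Python 3.11.15 with pandas 2.3.3, numpy 2.4.6, scipy 1.17.1 and matplotlib 3.10.9 was used for the rest. Fits were tested on simulated data. For shares, cells were thinned to 10000 UMIs. Intervals from counting were not used, and p-values measure the spread between libraries. Same-numbered sums come from the same library, and their deviations from the type means correlated between -0.0113 and 0.505, over 0.1 in 48 of 70 cases.

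Members and lists were chosen with earlier results of these data known. Named genes were up to 4 members per family with the highest level, the leading marker of each type, the 10 widest ranges among neuron types and Sema5a, 42 in all; others named were chosen after their values were seen. Alternatives were other scaling and filters, another threshold, cells over 10% mitochondrial UMIs left out, sums of at least 10 cells, a library block and leaving out each library. Promoters came from RefSeq, matched by symbol for 58 members and not for 10.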

Additional observations from a re-analysis of the deposited data

Results flagged for a closer look

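Dixon's test at its 95% critical value of 0.71 for 5 libraries marked 5 of 42 groups of library values, where chance marks about 1 in 20. Nrp1 in NF2_Ntrk2.Necab2 neurons had its lowest value, 197 CPM, in library 1, which held 3 of these cells, against 326 to 376 CPM in the others. Plxnb3 in satellite glia had its highest value, 32.9 CPM, in library 2, and Robo4 in endothelial cells had its highest value, 189 CPM, in library 2. Ntn1 in endothelial cells, at 3.69 CPM, and Robo3 in satellite glia, at 2.89 CPM, each rested on 1 UMI in 1 library, with 0 in the other 4.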

How the results depend on the processing

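The totals of guidance genes called in either direction stayed within 1.5 times of the reported ones under the alternatives run. Their split did not when the cells of each class were summed, which took the genes higher in glia from 21 to 13 and lower from 12 to 21, those lower in endothelial cells from 6 to 13, and those lower in NF against NP from 11 to 6. The 129 marker calls ranged from 118 to 130 on leaving out 1 library and came to 190 when types were weighted equally and 149 with no minimum share of cells. The shares of all genes called a marker under these settings are not given here. These totals therefore say nothing of the guidance genes in particular. In the same order as in the report, leaving out 1 library gave 30 to 33 calls in glia, 23 to 25 in endothelial cells, 33 to 34 in NF against NP, 27 to 31 in NF against PEP, 17 to 19 in NP against PEP and 47 to 50 in the F test. With the library as a replicate block these were 33, 25, 35, 31, 18 and 49, as reported, with 128 marker calls, and the block changed no other call. Of 2640 fold changes recomputed, 2530 kept their direction and side of the threshold, 55 fell short of it, 46 newly passed it and 9 reversed. All 9 reversed when the cells of each class were summed, an alternative chosen after seeing the data: in glia Sema5a (-2.12), Plxnd1 (-1.04), Sema3e (-0.33) and Efnb2 (-0.065), in NF against NP Unc5d (1.82), Unc5b (1.26) and Efnb1 (-0.63), and in NP against PEP Efnb1 (1.15) and Ephb6 (-1.17). By construction this sum weighs types by their UMIs. With library totals only, the median of all genes moved from -0.11 to -0.42 in glia, and from -0.60 to -0.71 in endothelial cells. Endothelial cells had the lowest median depth, at 16889 UMIs per cell, and they and NF2_Ntrk2.Necab2 neurons had 3 cells each in library 1.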
